A study of Mus musculus with 26 samples.

Results

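The comparison covered alectinib-treated EA3 cells against alectinib-treated EA1 cells, in 8 of the 26 RNA sequencing libraries of the series. EA1 and EA3 are murine lung cancer lines driven by an Eml4-Alk fusion, which was induced in C57BL/6 mice with an adenovirus carrying Cas9 and guide RNAs. The lines came from different mice and each group is a single line, so that line and mouse of origin cannot be told apart. Both groups received 100 nM alectinib, an inhibitor of the ALK kinase, for 1, 2, 3 or 5 days, with 1 library per line and day (4 per line). The 8 DMSO libraries of the same lines and days (0.1% DMSO) served as a separate comparison, and the libraries labelled day 7 and genes of chromosomes X and Y were left out. The days stood in for replicates, and nothing in the labels says that they were separate cultures, so that p-values measure the spread between these libraries only.

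ALK fusion kinases signal through the MAPK pathway among others, and early outputs of that pathway include ETS and AP-1 factors, EGR factors and ERK phosphatases. The Cdkn2a locus encodes Ink4a, a brake on the RB pathway, and Arf, and other brakes and death effectors limit the growth of damaged cells. Carcinoma cells also differ in how far they keep epithelial junctions or take up a mesenchymal program.

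Alectinib library totals lay between 8226196 and 11751971 counts in EA1 and between 8992932 and 10422755 in EA3. Mitochondrial genes took 2.35 to 2.77% of counts in EA1 and 2.50 to 3.85% in EA3, and the EA3 day 5 library stood farthest from the others of its group. Summed markers of epithelium were 3230 to 5310 CPM (counts relative to the scaled library size) in EA1 and 2940 to 6640 in EA3, with 4 of 7 markers higher in EA3 and Esrp1 at 0 in EA1. Lung epithelial markers summed to 0.962 to 2.41 CPM in EA1 and 2.35 to 16.2 in EA3, most of it from Ager (means 1.08 and 7.05 CPM). Sftpc and Sftpa1 were at 0 in both lines and Nkx2-1 at 0 in EA1. Leukocyte markers summed to at most 1.25 CPM, with Cd3e, Adgre1 and Tyrobp at 0 in both lines. Fibroblast markers summed to 13.9 to 74.0 CPM in EA1 and 82.6 to 251.0 in EA3, most of it from Col1a1 (means 42.0 and 131 CPM), with 2 of 7 markers higher (3 were tested), against 26.7% of all genes tested. On a longer fibroblast list 5 of 9 tested were lower and 3 higher in EA3, where 23.6% of all genes were lower and 26.7% higher (median log2 fold change -3.30, and 1 higher without day 2). Smooth muscle markers summed to 173 to 255 CPM in EA1 and 0.451 to 8.98 in EA3, and endothelial markers to 3.49 to 6.49 and 0 to 0.468, with Cdh5 at a mean of 4.21 CPM in EA1 and 0 in EA3 and Tie1 and Cldn5 at 0 in both lines. Their part in the results below was not tested, and in bulk RNA fewer cells of a type and less RNA per cell cannot be told apart.

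EA3 and EA1 differed widely under alectinib. Of 12669 genes tested, 6365 (50.2%) passed an adjusted p of 0.05 in edgeR's quasi-likelihood test with the day as a block, 3380 (26.7%) higher and 2985 (23.6%) lower in EA3. The difference was at least 2-fold in 2322 genes (18.3%), 1207 higher and 1115 lower. In 5295 genes (41.8%) the 4 EA3 values did not overlap the 4 EA1 values. The count of genes past the threshold was 4220 without day 2.

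Cdkn2a and Cdkn2b, the neighbouring genes of the Ink4a, Arf and Ink4b brakes, were nearly absent in EA1 and high in EA3. Cdkn2a (chr4:89274471-89294653, minus strand) was at 0, 0, 0 and 0.0832 CPM in EA1 and at 315, 349.8, 316 and 272 CPM in EA3, which is 1 count against 12703. The ratio was 12700 with a 95% counting interval of 2280 to 501000, which covers counting error only. Cdkn2b (chr4:89306299-89311039) was at 0.0955 CPM on day 1 and at 0 on the other days in EA1, and at 147, 186, 157 and 161 CPM in EA3 (ratio 6560, interval 1180 to 259000). Without alectinib EA1 held no count of either gene, and EA3 was at least 3420-fold higher for Cdkn2a and at least 1530-fold higher for Cdkn2b, with a floor of 3 counts over the group. Next to Cdkn2a, the noncoding gene Gm12606 (chr4:89235699-89273403) went the other way, with 15, 15, 16 and 15 counts in EA1 and no count in EA3. In DMSO its means were 0.915 CPM in EA1 and 0.142 in EA3. Beyond it, Mtap, an enzyme of methionine salvage, was at a mean of 530.3 CPM ± 34.7 (SD, n = 4) in EA1 and 186 ± 8.22 in EA3, so that it was not at 0 in either line (log2 fold change -1.49, adjusted p = 0.00012). Klhl9, farther out on the same side, had means of 65.9 and 92.8 CPM (log2 fold change 0.50, adjusted p = 0.0098), and without day 2 the adjusted p was 0.0571.

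Of the other brakes of the RB pathway measured, Cdkn2c, Cdkn2d, Cdkn1b, Rb1 and Rbl2 were lower in EA3 and Rbl1 was not called. Cdkn2c, an inhibitor of Cdk4 and Cdk6, was at 39.9, 48.7, 34.3 and 41.4 CPM in EA1 and 12.4, 10.6, 8.79 and 9.80 CPM in EA3 (log2 fold change -1.96, adjusted p = 0.000157), without overlap. Rb1 itself fell by 1.24 on the log2 scale (adjusted p = 0.000333, with 14.9% of its exon bases shared with Rcbtb2 on the other strand). Cdkn2d fell by 1.18 and the RB relative Rbl2 by 1.01, the latter with 21% of its exon bases shared with an antisense gene. Cdkn1b, the inhibitor p27, had a log2 fold change of -0.30 (adjusted p = 0.0279), which lost its call without day 1 (0.0591), day 2 (0.14) or day 3 (0.0911). Rbl1, another RB relative, had means of 23.2 and 27.2 CPM (log2 fold change 0.24, adjusted p = 0.0695, and 0.042 by library size alone). The strand setting of the counting is not given in the sources used here, so that reads of such partners cannot be told apart.

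Of the genes of cell cycle arrest and cell death, Ccng1, Phlda3, Cdkn1a, Gdf15, Mdm2 and Bax were lower and Pmaip1 was higher in EA3. They were taken from a longer list that is not reported here, so that they do not show how the list moved. Ccng1, encoding cyclin G1, was at 283, 336, 288 and 347 CPM in EA1 and 70.0, 90.5, 72.2 and 80.8 CPM in EA3. No EA3 value reached an EA1 value (log2 fold change -1.98, SE 0.08, adjusted p = 4.07e-05), and in DMSO the log2 fold change was -2.72. Phlda3, an inhibitor of AKT signaling, was at 131, 153, 154 and 199.6 CPM against 38.9, 40.3, 41.9 and 44.3 CPM (log2 fold change -1.91, adjusted p = 8.2e-05). The Cdk inhibitor Cdkn1a had means of 93.0 and 19.98 CPM (log2 fold change -2.24, adjusted p = 0.000296). The stress cytokine Gdf15 fell by 3.42 on the log2 scale, although its EA3 value on day 3 was 20.2 CPM against 1.62 to 2.98 on the other days. Mdm2, a ubiquitin ligase (means 102.5 and 52.8 CPM), and the death effector Bax (55.9 and 27.1 CPM) were lower too. Pmaip1, encoding the BH3 protein Noxa, was higher, at 11.0, 9.62, 10.3 and 10.8 CPM in EA1 and 98.2, 113, 67.3 and 68.5 CPM in EA3 (log2 fold change 3.03, adjusted p = 0.000128). In the BCL2 family list, which holds Bax and Pmaip1, 7 of 16 were higher and 4 lower (68.8% called, against 50.2% of all genes, median log2 fold change 0.22). The death effector Bid was higher by 0.95, and Bik was at no more than 0.287 CPM in EA1 and at 1.80 to 5.86 CPM in EA3.

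Alk and Eml4 themselves did not pass the test. Alk was at 56.6, 48.1, 41.2 and 40.4 CPM in EA1 and 48.7, 54.5, 52.3 and 51.3 CPM in EA3 (log2 fold change 0.18, adjusted p = 0.219). Eml4 had a log2 fold change of 0.27 (adjusted p = 0.0836).

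Of the MAPK output genes, 14 of 31 tested were lower and 6 higher in EA3 (64.5% called, where 23.6% of all genes were lower and 26.7% higher), with a median log2 fold change of -0.49, and 8 were lower without day 2 and 7 with no day block. In DMSO, where 17.0% of all genes were lower and 18.4% higher, 8 were lower and 7 higher (median -0.05). Etv4 and Etv5, ETS factors induced by the pathway, were low in both lines, with means of 4.39 and 7.00 CPM for Etv4 (log2 fold change 0.39, adjusted p = 0.513, and -0.14 without day 3) and of 5.65 and 4.12 CPM for Etv5 (log2 fold change -0.64, adjusted p = 0.305). Fosl1, an AP-1 subunit, had a log2 fold change of -0.66 (adjusted p = 0.0938), with 57.2% of its exon bases shared with Ccdc85b on the other strand. Dusp6, an ERK phosphatase, was at 29.6, 32.7, 58.9 and 29.1 CPM in EA1 and 17.9, 22.1, 48.8 and 21.3 CPM in EA3. The lines overlapped, EA3 was lower on each day, and the log2 fold change of -0.48 (adjusted p = 0.00963) lost its call without day 2 (adjusted p = 0.0564) and with 24 libraries of all lines and treatments in 1 fit (0.203).

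EGFR ligands went in both directions. Areg was at 57.4, 113, 196 and 119 CPM in EA1 and 6.77, 6.94, 9.64 and 6.71 CPM in EA3, without overlap (log2 fold change -3.89, SE 0.23, adjusted p = 0.000155). Ereg fell by 2.28 and Btc by 2.99 on the log2 scale (-0.25 in DMSO for Btc, adjusted p = 0.273), while Tgfa was higher by 0.91 (means 28.6 and 52.9 CPM) and Hbegf by 0.41 (adjusted p = 0.00817, and 0.172 with 24 libraries in 1 fit). Of the immediate early genes, Egr1 fell by 1.35 (adjusted p = 0.0256), with a call that was lost without day 1 (0.0902), day 2 (0.102) or day 3 (0.0901) and with no filter on low counts (0.155). Egr2 fell by 4.37 (-0.55 in DMSO, adjusted p = 0.579, and 0.0407 without day 5), Egr3 by 3.66 and Ier2 by 1.09. Ier3 was higher by 1.06 (adjusted p = 0.000736, and 0.0589 with 24 libraries in 1 fit).

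Among the receptor tyrosine kinases, 17 of 30 were higher and 5 lower in EA3 (73.3% called, median log2 fold change 0.48), again against 26.7% higher and 23.6% lower of all genes. In DMSO, where 18.4% of all genes were higher and 17.0% lower, 10 of 25 were higher and 8 lower (median 0.06). Erbb3, the neuregulin receptor, was at 2.10, 1.20, 1.65 and 1.58 CPM in EA1 and 58.4, 60.9, 28.1 and 31.1 CPM in EA3 (log2 fold change 4.70, adjusted p = 0.000106). Ddr2, a collagen receptor, was at 233, 273, 269 and 267 CPM in EA1 and 3.16, 6.19, 10.0 and 12.9 CPM in EA3 (log2 fold change -5.10, adjusted p = 0.000202). Neither gene overlapped between the lines. Ror2, a Wnt receptor, fell by 2.15 and Pdgfrb by 6.30, the latter with 6.60 CPM on day 5 in EA3 and at most 0.534 CPM on the other days. Of 31 ligands 13 were higher and 13 lower (83.9% called), with Efnb2 higher by 1.66. Igf2 was at 19.9, 30.3, 44.3 and 51.4 CPM in EA1 and at most 0.32 CPM in EA3.

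Genes of epithelial junctions and polarity were mostly higher in EA3, and their list had the highest median of those described here. Of 32 tested, 24 were higher and 1, the desmosomal Dsc2, was lower in EA3, with a median log2 fold change of 3.36, against -0.0004 over all genes (3.36 also with the 6 genes with few counts at their bound). The lower genes numbered 2 without day 1. In DMSO, where 18.4% of genes were higher and 17.0% lower in EA3 (35.3% called), 23 of 31 were higher and 2 lower (median 3.30). Daily medians under alectinib ran from 2.58 to 4.0, and 21 genes (65.6%) did not overlap, against 41.8% of all genes.

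Esrp1, a splicing factor of epithelial cells, had no count in the 4 EA1 libraries and was at 51.8, 45.0, 42.2 and 14.9 CPM in EA3, at least 529-fold higher. Cldn4, a tight junction claudin, was at 0.287, 0.240, 0 and 0 CPM in EA1 and 484, 473, 352 and 128 CPM in EA3 (log2 fold change 11.35, adjusted p = 1.2e-05). Cldn3 was at 0.191, 0.240, 0.103 and 0 CPM against 181, 173, 163 and 55.8 CPM. These 3 genes were lowest in EA3 on day 5 and still far above every EA1 value.
Epcam, the epithelial adhesion molecule, was not silent in EA1, at 6.30, 7.21, 7.73 and 4.66 CPM, and was at 125, 143, 136 and 87.1 CPM in EA3 (log2 fold change 4.26, SE 0.09, adjusted p = 6.82e-06, and 6.63 in DMSO). The claudin Cldn7 had 3 counts in EA1 (ratio 873, interval 299 to 4240), and the membrane protease St14 differed by 9.70 on the log2 scale. The clathrin adaptor subunit Ap1m2 had no count in EA1 and was at least 162-fold higher, and Rab25, a recycling GTPase, had 2 counts (ratio 465, interval 128 to 3840).

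Cdh1, encoding E-cadherin, was abundant in both lines, at 775, 611, 576 and 673 CPM in EA1 and 1249, 1112, 647 and 1056 CPM in EA3. The lines overlapped, with a log2 fold change of 0.61 (adjusted p = 0.00956), and without day 2 the adjusted p was 0.056. Of 9 keratins tested, 1 was higher and 4 were lower in EA3 (55.6% called, near the 50.2% of all genes, median log2 fold change -0.59), with 2 lower without day 2, and 3 higher and a median of 0.03 without day 5. Of the simple keratins, Krt8 had means of 1763 and 1266 CPM (adjusted p = 0.0896, and 0.0171 with DESeq2) and Krt18 of 669 and 765 CPM (adjusted p = 0.321). Krt7 was at 52.9, 43.8, 38.4 and 48.9 CPM in EA1 and 1344, 1247, 691 and 508 CPM in EA3 (log2 fold change 4.28, adjusted p = 0.000234). The lower keratins were Krt23, which fell by 5.59, Krt13, which fell by 1.63, Krt14, which fell by 2.88 (adjusted p = 0.0155, 0.0562 without day 2, 0.0589 without day 3 and 0.134 with no filter on low counts), and Krt20, which fell by 0.84 (adjusted p = 0.0107, and 0.0595 without day 2).

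The E-box that ZEB and SNAI repressors can bind was read in the promoters of the same genes. The matches describe the sequence and not these libraries, and any part of such factors in the differences was not tested. CACCTG or CAGGTG stood in 17.2% of all RefSeq starts and in 11 of 24 starts (45.8%) of 18 epithelial genes with a promoter in the table. It stood in 2 of 23 starts (8.7%) of 18 mesenchymal genes. The windows of Epcam (chr17:87635729-87635978, plus strand), Ap1m2 (chr9:21312334-21312583, minus strand) and Rab25 (chr3:88548280-88548529, minus strand) are given in GRCm38.p6 with the matches in capitals, to show how the matches lie. They were chosen among genes that hold a match and were higher in EA3. Cldn6 and F11r also hold a match and were not called (log2 fold change 0.68 and 0.10, adjusted p = 0.415 and 0.298), and 10 of the 18 epithelial genes hold one in all. Esrp1 has no entry in the table.
Epcam: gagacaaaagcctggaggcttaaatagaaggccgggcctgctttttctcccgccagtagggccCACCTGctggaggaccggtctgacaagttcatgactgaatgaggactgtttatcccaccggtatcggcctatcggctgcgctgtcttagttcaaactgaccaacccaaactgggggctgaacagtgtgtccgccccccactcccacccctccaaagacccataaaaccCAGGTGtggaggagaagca
Ap1m2: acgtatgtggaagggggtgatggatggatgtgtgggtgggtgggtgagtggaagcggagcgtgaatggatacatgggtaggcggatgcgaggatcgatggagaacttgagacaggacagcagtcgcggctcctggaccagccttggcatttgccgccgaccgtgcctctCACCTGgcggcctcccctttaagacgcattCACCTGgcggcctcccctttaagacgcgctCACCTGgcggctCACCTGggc
Rab25: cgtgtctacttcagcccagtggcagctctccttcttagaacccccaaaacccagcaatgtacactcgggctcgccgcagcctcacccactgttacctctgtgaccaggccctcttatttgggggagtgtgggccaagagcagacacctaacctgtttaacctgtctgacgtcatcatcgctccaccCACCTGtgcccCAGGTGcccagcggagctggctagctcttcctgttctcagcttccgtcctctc

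**Figure D1:**
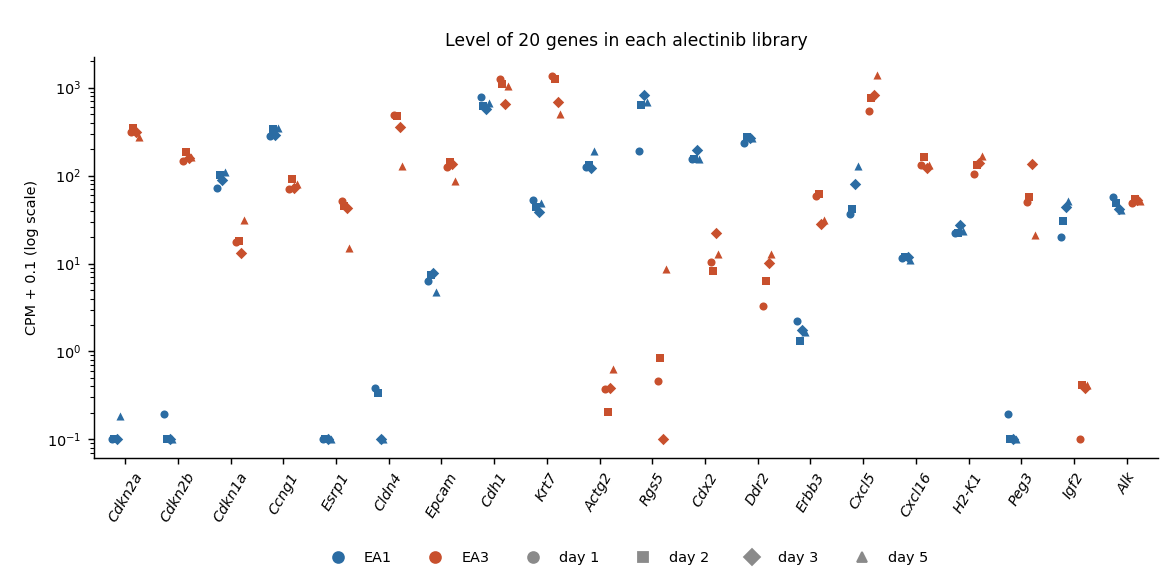
CPM of 20 genes (vertical axis, log scale, 0.1 added) in each alectinib library, blue for EA1 and red for EA3, with a marker shape for each day. Ccng1 sits lower in EA3, Cdkn2a, Esrp1 and Cldn4 sit at or near 0 in EA1, and Alk overlaps between the lines.

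Mesenchymal genes were split, with 16 of 32 lower and 9 higher in EA3 (78.1% called, median log2 fold change -0.46), where 23.6% of all genes were lower and 26.7% higher. In DMSO, where 17.0% of all genes were lower and 18.4% higher, 11 of 29 were lower and 10 higher (median -0.18). The lower genes included smooth muscle genes. Actg2, a smooth muscle actin, was at 127, 132, 121 and 189.9 CPM in EA1 and 0.271, 0.107, 0.281 and 0.532 CPM in EA3 (log2 fold change -8.83, adjusted p = 6.82e-06). In DMSO Actg2 was low in EA1 too, with 83 counts over the group and no count in EA3. Rgs5, a pericyte gene that is not on this list, was at 192, 628, 833 and 691 CPM in EA1 and 0.361, 0.747, 0 and 8.63 CPM in EA3 (log2 fold change -8.35, adjusted p = 0.000942). The matrix protease Mmp2 fell by 4.47 and Cnn1 by 4.35, the latter with an adjusted p of 0.064 with no filter on low counts. Cnn1 had a mean of 48.0 CPM in EA1 under alectinib. In DMSO its means were 0.884 CPM in EA1 and 0.033 in EA3, and it was not tested there. Vim, encoding vimentin, was high in both, with means of 3409 and 1929 CPM. The higher genes included the factor Prrx1 (2 counts in EA1, ratio 476, interval 131 to 3930) and Lox, a collagen crosslinking enzyme, higher by 5.69.

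All 22 collagen chains tested passed the threshold, 14 lower and 8 higher in EA3 (median log2 fold change -1.28), against 50.2% of all genes called. In DMSO, where 18.4% of all genes were higher and 17.0% lower, 8 of the 20 chains tested there were higher and 4 lower (median 0.18). Col12a1 was at 432, 682, 1021 and 1007 CPM in EA1 and 30.4, 59.0, 51.0 and 149 CPM in EA3 (log2 fold change -3.58, adjusted p = 0.000334). Col5a3 fell by 6.07, Col6a1 by 2.42 and Col3a1 by 5.47, with Col3a1 at 23.7 CPM on day 5 in EA3 against at most 0.960 on the other days and an adjusted p of 0.0533 with no filter on low counts. The higher chains included Col8a1 by 6.0, Col4a3 by 8.02 and Col1a1 by 1.80. The collagens were thus split between the lines.

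Lineage genes also separated the lines. Of 18 gut and gastric genes, 9 were lower and 4 higher in EA3 (72.2% called, median log2 fold change -0.81, and 7 higher without day 3), where 23.6% of all genes were lower and 26.7% higher. In DMSO, where 17.0% of all genes were lower and 18.4% higher, 6 of 20 were lower and 8 higher (median -0.12). Cdx2, the intestinal homeobox factor, was at 153, 156, 194 and 154 CPM in EA1 and 10.3, 8.11, 22.1 and 12.9 CPM in EA3 (log2 fold change -3.67, adjusted p = 0.00011). Cdh17, an intestinal cadherin, fell by 3.17. Of 17 lung identity genes, 9 were higher and 4 lower (76.5% called). Of the alveolar type 1 genes among them, Pdpn had 1 count in EA1 and was at 21.3 to 28.4 CPM in EA3, and Ager was higher by 2.49. Emp2 was higher by 0.48 (adjusted p = 0.013, and 0.0513, 0.0662 and 0.0541 without day 1, 2 and 3) and Aqp5 by 0.36 (adjusted p = 0.0489, with 0.141, 0.131 and 0.0654 without day 1, 3 and 5, 0.0706 with DESeq2 and 0.0543 with its size factors). Type 1 genes did not all go this way. Cav1, encoding the caveolin of type 1 cells, was lower in EA3. It was at 394, 317, 333 and 467 CPM in EA1 and 80.2, 58.9, 69.2 and 42.1 CPM in EA3 (log2 fold change -2.59, adjusted p = 0.000581). The type 1 gene Hopx was near 0 in both lines (means 0.0239 and 0.0533 CPM) and was not tested. The mucin Muc1 was higher by 7.92, and Sox2, a factor of airway and stem cells, fell by 6.55.

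Of the chemokines, 11 of 19 were higher and 6 lower in EA3 (89.5% called, against 50.2% of all genes, median log2 fold change 1.42). Without day 2 the counts were 7 and 2, and without day 3, 2 were lower. In DMSO, where 18.4% of all genes were higher, 7 of 11 were higher (median 2.56). Cxcl5, a neutrophil attractant, was at 36.8, 41.5, 79.7 and 129 CPM in EA1 and 538, 753, 828 and 1378 CPM in EA3 (log2 fold change 3.73, adjusted p = 7.04e-05). Both lines were highest on day 5. Cxcl16 was at 11.5, 11.8, 11.7 and 10.8 CPM against 133, 161, 123 and 132 CPM (log2 fold change 3.59, adjusted p = 1.2e-05, with 18.3% of its exon bases shared with Zmynd15 on the other strand). Cxcl10, a T cell attractant, was at no more than 0.287 CPM in EA1 and at 7.31, 7.68, 6.27 and 6.82 CPM in EA3 (log2 fold change 5.29, adjusted p = 0.000464).
Cxcl1 overlapped, at 148, 169, 255 and 262 CPM in EA1 and 66.1, 108, 178 and 250.2 CPM in EA3, and its log2 fold change of -0.57 (adjusted p = 0.0301) lost the call without day 1 (0.0678), day 2 (0.117) or day 3 (0.0755). In DMSO it was higher in EA3 by 1.34 on the log2 scale. Ccl2, a monocyte attractant, had a log2 fold change of 1.21 (adjusted p = 0.0473), with adjusted p-values of 0.162, 0.0977 and 0.0514 without day 2, 3 and 5, 0.246 with no filter on low counts and 0.057 with at least 10 counts in every library. Ccl5 was too low to be tested, with 3 counts in EA1 and 108 in EA3 (ratio 36.0, interval 12 to 177).

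Of 24 cytokines 12 were higher and 7 lower (79.2% called, where 26.7% of all genes were higher and 23.6% lower), with a median log2 fold change of 0.28 that was -0.08 without day 1. Csf1, the macrophage growth factor, was at 208, 119, 109 and 113 CPM in EA1 and 433, 566, 603 and 762 CPM in EA3 (log2 fold change 2.16, adjusted p = 0.00215). Csf3, the granulocyte factor, was higher by 5.66, Il23a had 3 counts in EA1 (ratio 217, interval 74.0 to 1060), and Tgfb1 fell by 1.37. Of 42 interferon-stimulated genes 23 were higher and 6 lower (69.0% called, median 0.51), with Xaf1 higher by 4.74 and Ifitm1 at 170.3, 83.5, 59.2 and 39.1 CPM in EA1 against 0.812, 0.32, 1.59 and 0.213 CPM in EA3 (log2 fold change -6.77). Of 22 MHC class I presentation genes 14 were higher and 3 lower (77.3% called, median 0.63, and 5 lower without day 5). The class I heavy chain H2-K1 was at 21.97, 21.9, 27.6 and 23.2 CPM against 105, 131, 140.1 and 169 CPM (log2 fold change 2.53, adjusted p = 5.98e-05). Its partner B2m was higher by 0.49 (adjusted p = 0.0272, and 0.122 without day 2), and the peptide transporter Tap1 fell by 2.78.

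**Figure D2:**
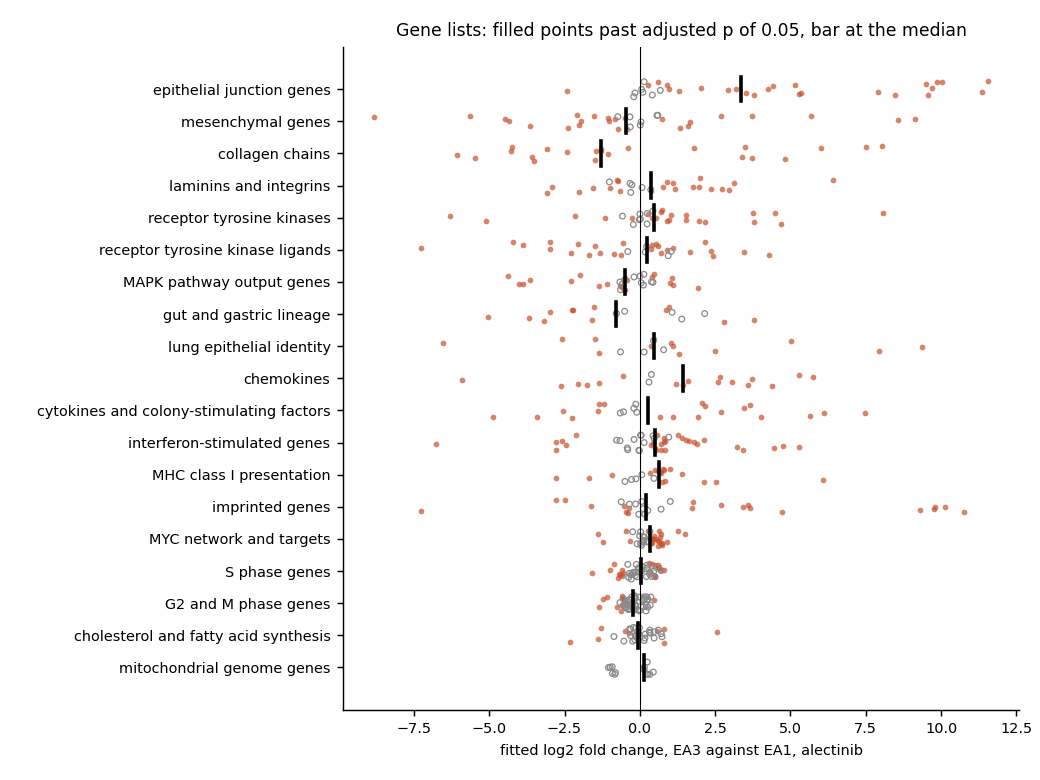
Fitted log2 fold change of EA3 against EA1 under alectinib (horizontal axis) for the tested members of 19 gene lists, filled where the adjusted p passed 0.05, with a bar at each median. Epithelial junction genes lie furthest to the right (median 3.36), collagen chains have a median of -1.28, and cell cycle lists stay near 0; genes with few counts are drawn at their fitted value, which is no bound.

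Cell cycle and MYC genes were read against the 50.2% of all genes called, 26.7% higher and 23.6% lower. Of 48 S phase genes 11 were higher and 9 lower (41.7% called, median log2 fold change 0.05), and without day 2 these counts were 7 and 4, with 6 higher without day 1 and 7 without day 3. Of 55 G2 and M phase genes 10 were lower and 1 higher (20% called, median -0.22), and 26 were lower without day 1 and 6 without day 2 or day 3. The list's daily median was 0.38 on day 1 and -0.66 on day 5. Mki67, a marker of cycling cells, had means of 289 CPM ± 69.7 (SD, n = 4) and 139 ± 51.3 (log2 fold change -1.08, adjusted p = 0.00767). MYC network genes were higher in 20 and lower in 4 of 39 (61.5% called, median 0.33, and 1 lower without day 2), and Myc was at 79.2, 70.5, 70.6 and 65.1 CPM in EA1 and 182, 155, 258 and 112 CPM in EA3 (log2 fold change 1.27, adjusted p = 0.00231). Of the 13 mitochondrial genome genes 0 passed the test in edgeR, 1 had an unadjusted p under 0.05 there, and 1 passed with DESeq2.

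Several imprinted genes were silent in 1 line. Of 30 tested, 12 were higher and 8 lower (66.7% called, where 26.7% of all genes were higher and 23.6% lower), with 5 lower without day 2 or day 3. Peg3, expressed from the paternal copy, was at 0.0955, 0, 0 and 0 CPM in EA1 and 49.3, 57.0, 136 and 21.1 CPM in EA3 (ratio 2730, interval 489 to 108000). Peg10 was at 7.76, 6.83, 4.86 and 136 CPM in EA3, so that day 5 stood apart, and had 1 count in EA1. The neighbouring Sgce had no count in EA1 and was at least 136-fold higher in EA3. The maternally expressed Meg3 and Rian were likewise without a count in EA1 and at least 143-fold and 104-fold higher. H19 went with Igf2 but weakly, with a log2 fold change of -1.64 (adjusted p = 0.0465) that lost its call without day 2 or day 3 (0.177 in both), with DESeq2 (0.091), by library size alone (0.0501) and with 24 libraries in 1 fit (0.12).

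Further genes of other kinds differed widely, some with no or 1 count in 1 line. Tmprss11e, a membrane serine protease, was at 54.8, 62.5, 36.1 and 15.1 CPM in EA3 (at least 573-fold higher), and Prl, encoding prolactin, at 58.0, 32.6, 38.3 and 13.1 CPM (at least 493-fold higher). Slc24a2, a sodium and calcium exchanger, was at 38.6, 71.7, 98.3 and 64.7 CPM in EA1 and had no count in EA3 (at least 911-fold lower). Bmp5 and Igfbp5 had 1 count each in EA3, with Bmp5 sharing 46.7% of its exon bases with Gm26903 on the other strand. Wnt7a was at 84.3, 68.1, 64.7 and 10.4 CPM in EA3 and had 1 count in EA1, Wnt10b was higher by 6.28 and Notch1 by 2.45, while the Notch target Hey1 fell by 4.79. These lists were split, where 26.7% of all genes were higher and 23.6% lower. Of 30 Wnt pathway genes tested 10 were higher and 10 lower (median log2 fold change -0.13). Of 17 Notch pathway genes 5 were higher and 5 lower (median -0.27). Aldh1a1, a retinaldehyde dehydrogenase, was higher by 3.15.

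The lines also differed without alectinib. In DMSO 4168 of 11793 genes passed the threshold. Of 11511 genes tested in both treatments, 5888 were called under alectinib, of which 2952 were called the same way in DMSO and 69 the opposite way. Of the 2322 genes called and at least 2-fold different under alectinib, 470 were not tested in DMSO, and of the other 1852, 1743 had the same sign there and 1384 were called the same way. The test of the difference between treatments, which shares libraries with both comparisons, called 154 of 13190 genes (1.17%), 37 upward and 117 downward, and 15 without day 2.

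Where the treatments differed, Dll1, a Notch ligand, was at 9.84, 9.98, 11.6 and 10.7 CPM in alectinib-treated EA1 and 4.87, 4.59, 7.30 and 7.14 CPM in EA3 (log2 fold change -0.82, adjusted p = 0.0087, and 0.0534 without day 2), while in DMSO the means were 10.8 and 136 CPM (log2 fold change 3.56). The difference was -4.37 (adjusted p = 0.000163), with 20.5% of its exon bases shared with A930024N18Rik. Gfpt2, of the hexosamine pathway, had a log2 fold change of -0.48 under alectinib (adjusted p = 0.142) and 4.83 in DMSO (difference -5.32, adjusted p = 0.00131). Grem1, a BMP antagonist, had -1.29 (adjusted p = 0.15) and 5.58 (difference -6.68, adjusted p = 0.00143). Sprr2h fell by 5.77 under alectinib, with 0.03 in DMSO (adjusted p = 0.945). The signs were opposite, and both called, for Mctp2 (2.25 and -1.68, difference 3.96, adjusted p = 0.00254) and for Col5a1 (-1.05 and 0.86). The receptor-like Plxdc2 was lower in both, by -1.50 and -4.21 (difference 2.78, adjusted p = 0.00143).

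Further genes differed between the lines by another amount under alectinib than in DMSO. Csf1 had a log2 fold change of -0.05 in DMSO (adjusted p = 0.817), and the difference of 2.23 (adjusted p = 0.00502) had an adjusted p of 0.0922 without day 2 and 0.0637 without day 3. The collagen receptor subunit Itga2 was at 58.2, 37.3, 44.9 and 40.7 CPM in EA1 and 288, 327, 252 and 315 CPM in EA3 under alectinib (log2 fold change 2.74), and had 0.27 in DMSO (adjusted p = 0.345). Its difference was 2.49 (adjusted p = 0.00975, and 0.0999 without day 2). The fibronectin receptor subunit Itga5 was at 352, 405, 389 and 452 CPM against 83.3, 89.9, 119.6 and 97.5 CPM (log2 fold change -2.02), and -0.13 in DMSO (adjusted p = 0.651), with a difference of -1.87 (adjusted p = 0.013, 0.11 without day 2 and 0.128 without day 3). The fatty acid elongase Elovl5 fell by 2.31 under alectinib, with -0.62 in DMSO (difference -1.67, adjusted p = 0.00434, and 0.0592 without day 3). The lactate exporter Slc16a3 was higher by 3.80, with a difference of -3.33 (adjusted p = 0.00413, and 0.0533 without day 2). Col12a1 had -6.20 in DMSO (difference 2.66, adjusted p = 0.00327, and 0.0604 without day 2).
The difference of Btc was -2.76 (adjusted p = 0.012, and 0.139 without day 2) and that of Egr2 was -4.10 (adjusted p = 0.0188, with 0.146, 0.166 and 0.119 without day 2, 3 and 5). Krt23 had -2.24 in DMSO (adjusted p = 0.0148, and 0.099 without day 3) and a difference of -3.69 (adjusted p = 0.0381, with 0.24, 0.124 and 0.198 without day 2, 3 and 5, and 0.075 with 24 libraries in 1 fit).
Weaker still were the differences of Cxcl5 (-3.18, adjusted p = 0.0483) and Cdx2 (-2.18, adjusted p = 0.0485), which lost the call with each day left out in turn (adjusted p from 0.0749 to 0.2 and from 0.0609 to 0.167), and those of Hey1 (-3.87), Ifitm1 (-4.14), Col5a1 (-1.89) and Rgs5 (-3.63), with adjusted p-values of 0.0299, 0.032, 0.0299 and 0.032. The call of Hey1, Ifitm1 and Col5a1 was lost without day 2 (0.2, 0.197 and 0.23), day 3 or day 5, and that of Rgs5 without day 1 (0.0802), day 2 (0.256) or day 3 (0.0648).

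**Figure D3:**
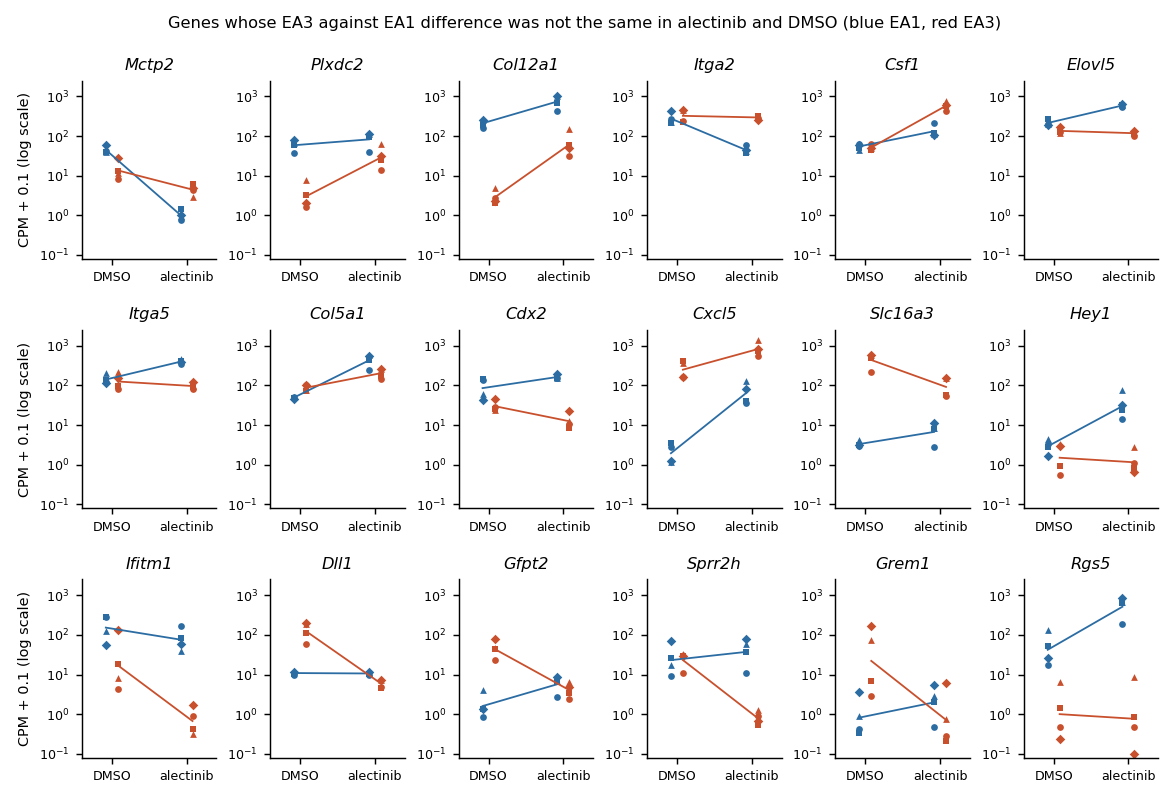
CPM (vertical axis, log scale, 0.1 added) of 18 of the genes called in the test of the difference between treatments, in DMSO and alectinib libraries of EA1 (blue) and EA3 (red). Points are libraries, marker shapes are days and lines join the geometric means; Dll1 is higher in EA3 in DMSO and lower in EA3 with alectinib.

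Few genes passed a test of change over the days. The change with each step of log2 day was called in 3 genes (0.0237% of 12669), Slfn2, Ugt1a7c and Mal, and 923 genes had an unadjusted p under 0.05. DESeq2 called 90. Without day 1, 2 or 5 none of the genes was called in edgeR.

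The direction of the differences also varied by chromosome. Of 11420 protein-coding autosomal genes, 28.7% were higher and 25.0% lower in EA3. On chromosome 5, 403 of 759 genes (53.1%) were higher and 70 lower, and on chromosome 17, 299 of 577 (51.8%) were higher and 54 lower, with a median log2 fold change of 0.38 and 0.41. On chromosome 8, 348 of 665 genes (52.3%) were lower and 67 higher, and on chromosome 14, 198 of 390 (50.8%) were lower and 43 higher, with medians of -0.38 and -0.42. The daily median of chromosome 17 stayed within 0.36 to 0.44 under alectinib and within 0.33 to 0.40 in DMSO. In 16 of 19 autosomes the 4 daily medians lay on 1 side of 0. Genes on a chromosome are not independent, and no test was made of these shares.

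**Figure D4:**
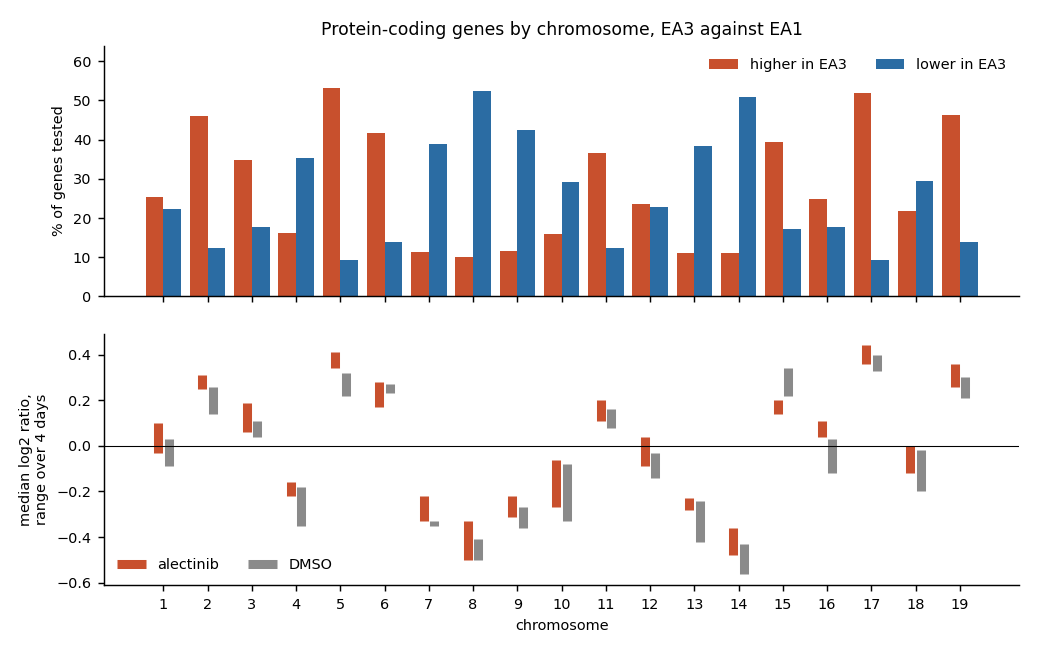
Share of protein-coding genes tested that were higher or lower in EA3 (upper panel, %) and the range over 4 days of the median log2 ratio (lower panel) for each autosome. Chromosomes 5 and 17 sit above 0 and chromosomes 8 and 14 below it in both treatments.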

How the data were processed

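RNA was sequenced from EA1, EA2 and EA3 cultures with 100 nM alectinib or DMSO. The authors ran FastQC and bbduk on the reads, aligned them to mm10 by STAR and deposited the raw counts that STAR gives per gene. The annotation release and strand setting are not given in the sources used here. Date numbers in place of gene symbols took at most 0.183% of counts in these libraries and were left out of tests, as were genes of chromosomes X and Y. Symbols were matched to GENCODE for coordinates.

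The 8 alectinib libraries were fitted in R 4.3.3 with edgeR 4.0.16 (TMM, filterByExpr by group, robust quasi-likelihood F test, day as block), with Benjamini-Hochberg adjustment and a threshold of 0.05. CPM are relative to TMM-scaled library sizes. DMSO libraries, the difference between treatments (line and day as blocks) and the change per log2 day were fitted alike. The days paired the lines: deviations from group means correlated across genes at 0.540, 0.658, 0.332 and 0.221 on the same day, against at most 0.295 with another day. For genes with no count in a group, folds use a floor of 3 counts over its 4 libraries, and intervals are 95% and cover counting error only. Alternatives were DESeq2 1.42.0, other scalings, filters and samples, no day block, and each day left out, and some were added after seeing the data. Some withheld items, and results that need them, are not reported here.

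The comparison, the gene lists and the genes were chosen with earlier results of these data known. The naming rule took the genes with the widest differences, up to 4 genes per list by p-value, the ALK and cell cycle brake genes, genes the study names, and leading genes of the other tests. The text describes some of these. Cdkn1a, Gdf15, Mdm2, Bax, Mtap, Klhl9, Gm12606, Cldn7, Rab25, Ap1m2, Cdh1, Dsc2, Krt8, Krt18, Cnn1, Col3a1, Col6a1, Col4a3, Meg3, Rian, Sgce, H19, Mki67, Egr1, Egr2, Egr3, Tgfa, Hbegf, Btc, Krt14, Bik, Cav1, Aqp5, Emp2, Ager, Vim, Tap1 and B2m fall outside it and were chosen after their values were seen.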

Additional observations from a re-analysis of the deposited data

Results flagged for a closer look

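Some values stood apart from the other 3 of their group. Of 234 groups of 4 libraries examined, 24 held such a value. The rule's rate of about 1 in 20 groups holds for like values with a normal spread. These values were days of a time course, so that no chance rate can be set beside the 24. On day 5 in EA3 these were Pdgfrb at 6.60 CPM (0 to 0.534 on the other days), Rgs5 at 8.63 (0 to 0.747), Col3a1 at 23.7 (0.187 to 0.960), Peg10 at 136 (4.86 to 7.76), H19 at 1.28 (0.213 to 0.374), Cldn3 at 55.8 (163 to 181), Il23a at 5.01 (18.4 to 21), Wnt10b at 32.9 (67.0 to 72.2) and Krt23 at 0.213 (0.0902 to 0.107). That library also stood farthest from the others of its group. On day 3 they were Gdf15 at 20.2, Areg at 9.64, Dusp6 at 48.8, Prrx1 at 37.0 and Grem1 at 6.08 CPM in EA3, and Dusp6 at 58.8, Cdx2 at 194 and Egr1 at 75.2 in EA1. The value of Dusp6 was high on day 3 in both lines. In EA1, Mtap at 582, Ddr2 at 233, Csf1 at 208, B2m at 226 and Cdkn2d at 14 CPM stood apart on day 1 and Actg2 at 190.0 on day 5. Igf2 was at 0 CPM in EA3 on day 1, against 0.281 to 0.32 on the other days.

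Of the 154 genes for which the log2 fold change of EA3 against EA1 differed between alectinib and DMSO in edgeR's test, 21 are described here. It was higher under alectinib for Plxdc2 (2.78), Mctp2 (3.96), Col12a1 (2.66), Csf1 (2.23) and Itga2 (2.49). It was lower for Dll1 (-4.37), Gfpt2 (-5.32), Sprr2h (-5.66), Grem1 (-6.68), Itga5 (-1.87), Elovl5 (-1.67), Slc16a3 (-3.33), Cxcl5 (-3.18), Cdx2 (-2.18), Hey1 (-3.87), Ifitm1 (-4.14), Col5a1 (-1.89), Rgs5 (-3.63), Btc (-2.76), Egr2 (-4.1) and Krt23 (-3.69).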

How the results depend on the processing

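For the 127 genes followed in the alectinib comparison, 1519 of 1594 values under alternatives kept the direction and side of the threshold, 72 lost the call, 2 gained it and 1 turned. Etv4, which was not called, turned to -0.14 without day 3 and ran up to 0.82 with a day left out. In DMSO 5 genes that were not called turned. With a day left out, Csf1 ran from -0.16 to 0.01, Itga2 from 0.00 to 0.42, Itga5 from -0.32 to 0.01 (0.00 without day 2) and Sprr2h from -0.29 to 0.46 (-0.05 and -0.01 without day 1 and day 2). Without the day block Sprr2h was at -0.24 and Egr2 at 0.05. With 24 libraries in 1 fit, 12 genes lost their call under alectinib, among them Egr1, Cxcl1, Ccl2, B2m, Cdkn1b, Aqp5, Emp2 and Krt20 (adjusted p = 0.0997, 0.265, 0.145, 0.171, 0.187, 0.325, 0.0893 and 0.0645).

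The count of 6365 genes under alectinib was 2322 with a fold change of at least 2, 5582 with no day block and 4220 to 6466 with a day left out. In DMSO 4168 became 1755 with no block and 2362 to 4635 with a day left out. The 154 genes that differed between treatments became 538 with DESeq2, 95 with no block, 248 with 24 libraries in 1 fit and 15 to 134 with a day left out, lowest without day 2. With no block that difference lost its call for Plxdc2, Grem1, Cdx2, Hey1, Ifitm1, Rgs5, Btc, Egr2 and Krt23 (adjusted p = 0.0959, 0.156, 0.11, 0.0541, 0.154, 0.507, 0.114, 0.07 and 0.23), as did Dusp6, Cxcl1, H19, Cdkn1b, Egr1, Krt20 and Aqp5 under alectinib (0.378, 0.379, 0.124, 0.115, 0.0672, 0.136 and 0.0501) and Cxcl1, Elovl5 and Krt23 in DMSO (0.162, 0.0769 and 0.129). It changed no other call of a gene given here. The difference also lost its call by library size alone for Cxcl5 and Cdx2 (0.0604 and 0.0664) and with 24 libraries in 1 fit for Ifitm1 (0.121). The 3 genes of the change over days became 90 with DESeq2 and 0 to 4 with a day left out. Of calls, 53.1% were higher in EA3, 56.9% by library size alone and 51.4% with DESeq2 size factors. The causes of these changes were not tested.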
